A study of Mus musculus with 10 samples.

Results

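The collagen genes of mouse skin are described here as a set of 44 genes, taken from 49671 gene IDs with read counts, of which 21811 were protein coding. Every protein-coding gene was taken whose symbol in the GENCODE M21 annotation of the GRCm38 genome assembly has the form Col, digits, a, digits. By the molecule their chains build, 11 were fibrillar, 6 belonged to beaded filaments, 9 were fibril-associated, 8 were basement membrane collagens, 1 formed anchoring fibrils, 4 were transmembrane, 3 built short-chain networks and 2 fell outside these classes. Poly(A) RNA of whole skin was sequenced from 5 NPYtet mice and 5 WT mice, all aged 22 weeks, with 1 library per mouse. The NPYtet mice were homozygous for the targeted Npy allele of the strain B6;129S4-Npytm2Rpa/J (NPY tet/tet), which the study's title ties to Npy overexpression, and the WT mice were their wildtype siblings (NPY +/+). The strain name stands for a mixed C57BL/6 and 129S4 background, and the labels name no drug and no Cre for either group. The labels give NPYtet replicates 2 and 5 and WT replicates 2, 4 and 5 as male, and NPYtet replicates 1, 3 and 4 and WT replicates 1 and 3 as female.

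Collagens are extracellular matrix proteins in which alpha chains wind around each other into a helix rich in glycine and proline. In skin, fibroblasts of the dermis secrete the fibrillar collagens that give the tissue its tensile strength, fibril-associated collagens coat those fibrils, and beaded filaments of type VI collagen lie between them. Network-forming type IV collagen underlies the epidermis and the vessel walls, while types VII and XVII fasten basal keratinocytes to the dermis.

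Total counts ran from 23209405 to 53357695 reads per library, so counting error was small for all but the rarest collagens. Npy, the check of the genotype, lay between 96.2 and 485 CPM in the NPYtet libraries, against 0.094 to 2.86 CPM in the WT libraries, where CPM is the usual count scaled to library size, here with sizes adjusted by the trimmed mean of M-values (TMM). All 6 basal keratinocyte markers and all 8 fibroblast markers had reads in these skins. NPYtet replicate 1, labelled female, held 2 reads of the X-inactivation transcript Xist and 1513 reads of the Y-linked gene Ddx3y, which goes against its label. The other libraries labelled female held 14149 to 20177 Xist reads and 0 Ddx3y reads. Those labelled male held 0 to 13 Xist reads and 361 to 4078 Ddx3y reads. The label of NPYtet replicate 1 was kept, including where sex is a term of the genotype and interaction tests. The main tests for sex are also given without this library. NPYtet replicate 5 and WT replicate 2, both labelled male, stood apart from the rest: the ribosomal RNA locus took 4.40% of reads in NPYtet replicate 5 and 1.67% in WT replicate 2, against 0.222% to 0.406% in the other 8 libraries, and they had the fewest genes with a read (19953 and 21144). In bulk skin, fewer cells of a type and less RNA per cell cannot be told apart.

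Promoter sequence is shown for 5 members on which the results turn: Col1a2 and Col3a1, among the most abundant collagens, Col11a1 and Col4a4, the members with the smallest p by genotype, and Col6a6, the member called by sex. Each window runs from 250 bases before to 50 bases after the RefSeq start on GRCm38.p6, 5′ to 3′ on the gene's own strand. RefSeq windows were found for 35 of the 44 members. The windows lie at chr6:4505368-4505667 on the plus strand (Col1a2, inside the GENCODE span of the gene), chr1:45311288-45311587 on the plus strand (Col3a1), chr3:114030290-114030589 on the plus strand (Col11a1), chr1:82586800-82587099 on the minus strand (Col4a4) and chr9:105828036-105828335 on the minus strand (Col6a6). Capitals mark matches on either strand to the letters of common promoter elements. TATAAA stands for the TATA box. CCAAT stands for the box of that name. The GC box was searched as GGGCGG. No match overlapped another in these windows.
Col1a2: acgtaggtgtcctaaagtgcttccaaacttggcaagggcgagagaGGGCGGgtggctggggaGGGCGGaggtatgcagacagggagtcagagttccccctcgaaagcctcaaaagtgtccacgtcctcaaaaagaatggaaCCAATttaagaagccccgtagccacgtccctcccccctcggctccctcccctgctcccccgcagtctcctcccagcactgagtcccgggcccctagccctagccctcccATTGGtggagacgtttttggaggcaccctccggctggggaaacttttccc
Col3a1: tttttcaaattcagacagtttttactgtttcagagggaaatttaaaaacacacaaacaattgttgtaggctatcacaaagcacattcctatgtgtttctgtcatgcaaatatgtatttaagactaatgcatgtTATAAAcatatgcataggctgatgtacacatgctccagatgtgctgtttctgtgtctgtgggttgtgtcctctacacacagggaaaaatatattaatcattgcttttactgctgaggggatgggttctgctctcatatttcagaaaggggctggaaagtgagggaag
Col11a1: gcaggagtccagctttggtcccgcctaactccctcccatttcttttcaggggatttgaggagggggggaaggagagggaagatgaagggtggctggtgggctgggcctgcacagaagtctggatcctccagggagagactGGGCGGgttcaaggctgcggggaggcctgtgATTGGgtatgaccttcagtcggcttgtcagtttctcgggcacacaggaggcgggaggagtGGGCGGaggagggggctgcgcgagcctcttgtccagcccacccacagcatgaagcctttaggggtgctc
Col4a4: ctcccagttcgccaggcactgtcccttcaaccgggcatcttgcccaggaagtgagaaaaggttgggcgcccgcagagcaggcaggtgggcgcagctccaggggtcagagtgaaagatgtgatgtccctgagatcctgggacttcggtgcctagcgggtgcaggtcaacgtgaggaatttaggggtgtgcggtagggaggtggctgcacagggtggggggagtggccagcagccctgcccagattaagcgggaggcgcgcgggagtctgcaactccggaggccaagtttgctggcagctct
Col6a6: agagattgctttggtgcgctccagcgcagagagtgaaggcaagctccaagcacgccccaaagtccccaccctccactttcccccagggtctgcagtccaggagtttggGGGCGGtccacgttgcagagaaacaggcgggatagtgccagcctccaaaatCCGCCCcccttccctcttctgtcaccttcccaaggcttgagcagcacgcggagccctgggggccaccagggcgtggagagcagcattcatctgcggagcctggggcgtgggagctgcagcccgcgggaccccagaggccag

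With the start counted as position 0, Col1a2 had CCAAT matches at -109 and 0 and GGGCGG matches at -205 and -188, while Col3a1 had only a TATAAA match, at -117. Col11a1 had a CCAAT match at -79 and GGGCGG matches at -110 and -19, Col6a6 had GGGCGG matches at -142 and -91, and the Col4a4 window held none of the motifs. Over all 32851 RefSeq windows of this length, TATAAA occurred in 13.6%, CCAAT in 37.4% and GGGCGG in 35.7%. Over the 38 collagen windows these shares were 13.2%, 34.2% and 60.5%. Several collagens are neighbours in the genome: Col4a4 and Col4a3 start head to head 72 bases apart on chromosome 1, Col4a1 and Col4a2 start head to head 21 bases apart on chromosome 8, with overlapping first exons, and Col4a6 and Col4a5 lie head to head on the X chromosome.

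Collagens took a large and variable part of the skin transcriptome. Their reads made up 8.19%, 4.22%, 1.35%, 1.52% and 1.97% of all counted reads in NPYtet replicates 1 to 5, against 1.55%, 2.96%, 1.56%, 3.71% and 5.93% in WT replicates 1 to 5. The genotypes overlapped throughout this range, and the highest and the lowest share were both NPYtet libraries. By labelled sex, the male libraries lay between 1.97% and 5.93%, while the 4 lowest shares, from 1.35% to 1.56%, were all libraries labelled female, and the highest share was the library labelled female whose Xist and Ddx3y reads conflict with that label. Col1a1 and Col1a2, the chains of type I collagen, and Col3a1, the chain of type III collagen, together gave 60.8% to 91.6% of collagen reads. The beaded filament genes took 0.0775% to 0.189% of all reads, the basement membrane genes 0.0907% to 0.265% and the transmembrane genes 0.0389% to 0.209%, while the fibril-associated genes took 0.0331% to 0.0502%.

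**Figure D1:**
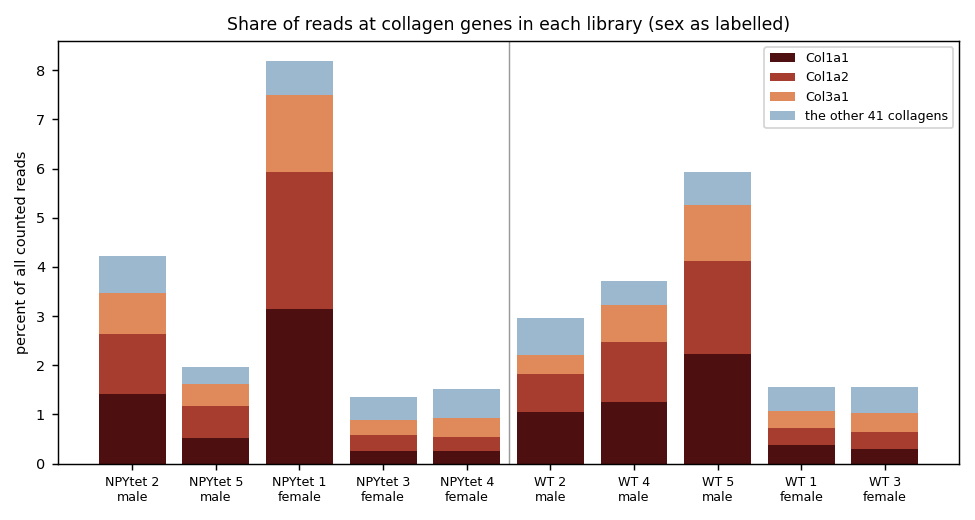
Percent of all counted reads that fell on collagen genes in each library (bar height), divided into Col1a1, Col1a2, Col3a1 and the other 41 members, with NPYtet libraries left of the line and WT libraries right of it. NPYtet replicate 1, labelled female, has the tallest bar at 8.19%, and the other libraries labelled female have the 4 shortest, from 1.35% to 1.56%.

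Levels between genes were compared as RPKM, the CPM divided by kilobases of exon. The mean over the 10 libraries fell off steeply from Col1a1 at 1712 RPKM (336 to 4463) through Col1a2 at 818 RPKM (192 to 2094) and Col3a1 at 680 RPKM (268 to 1499). Their ranges over libraries overlapped one another. The step from Col1a1 to Col1a2 came with exon lengths of 6563 and 12426 bases. In CPM their means were closer, at 11108 and 10548 in NPYtet and 11358 and 9787 in WT libraries. Next in RPKM came Col17a1, the keratinocyte hemidesmosome collagen, at 218 RPKM (96.1 to 322), then Col6a1 at 134 RPKM, Col6a2 at 68.5 RPKM, Col4a2 at 66.3 RPKM, Col4a1 at 64.7 RPKM, Col18a1 at 49.1 RPKM and Col16a1 at 44 RPKM, each overlapping its neighbours in this order. Col6a1 and Col6a2 likewise differed in exon length, at 4380 and 8326 bases. At the other end Col19a1 averaged 0.0118 RPKM, Col9a1 0.0192 RPKM and Col2a1, the main collagen of cartilage, 0.0255 RPKM. The members also differed in how much they varied: Col11a1 spanned a 59.4-fold range between its highest and lowest library and Col1a1 a 13.3-fold range, whereas Col27a1, another fibrillar collagen, spanned 1.45-fold, from 0.711 to 1.03 RPKM.

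**Figure D2:**
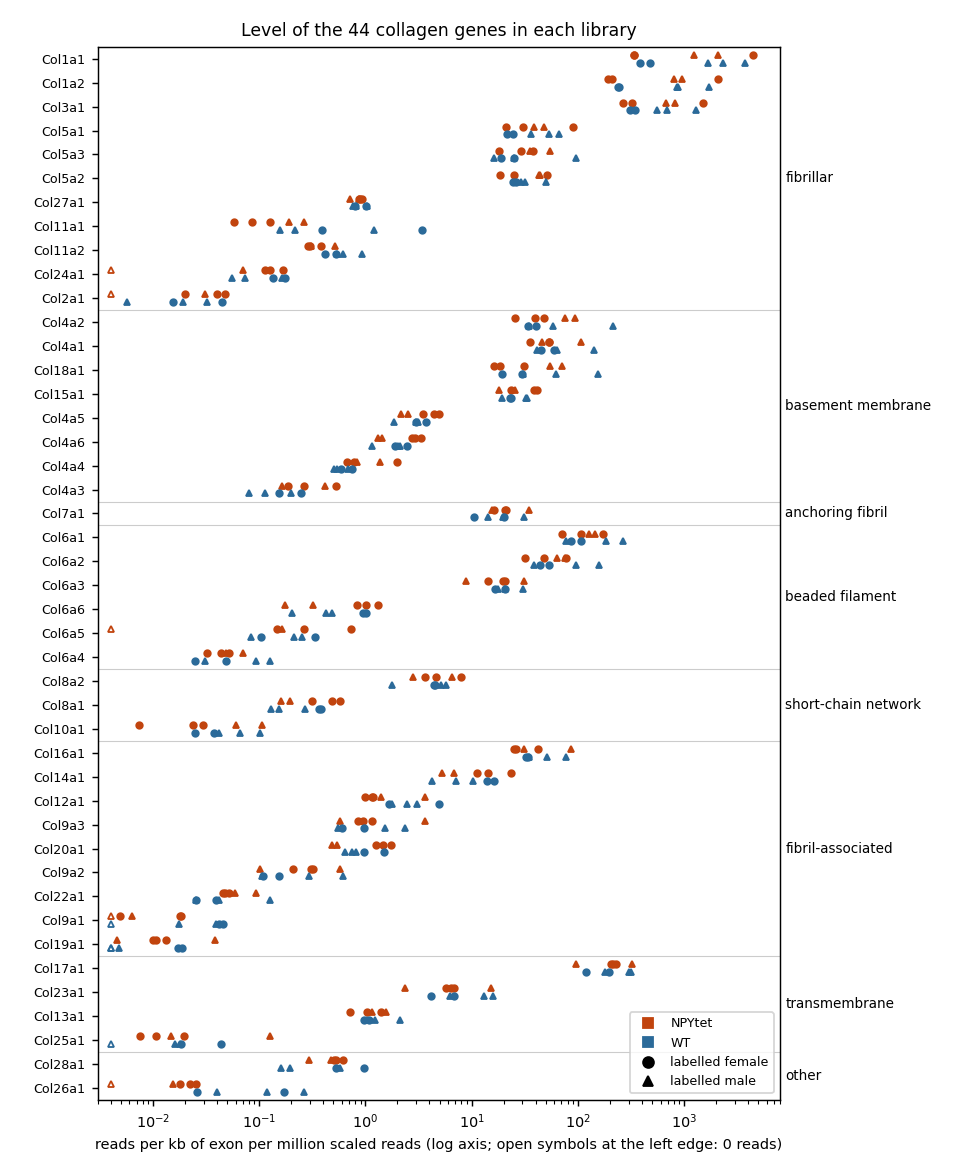
Level of each of the 44 collagens in each library, in RPKM on a log axis, ordered by class and by mean level. Orange marks NPYtet and blue WT, circles are libraries labelled female and triangles libraries labelled male, and open symbols at the left edge had 0 reads. The fibrillar genes Col1a1, Col1a2 and Col3a1 lie highest, and NPYtet and WT symbols are mixed in nearly every row.

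The study compared NPYtet skin with WT skin, and no collagen passed that test. Of the 44 members, 39 had enough reads to be tested, and edgeR's quasi-likelihood test with labelled sex as a term called 0 of them by genotype at an adjusted p under 0.05. The same fit called 0.00554% of all 18060 genes, which was Npy alone. At an unadjusted p under 0.05 there were 2 collagens, Col11a1 and Col4a4, against 3.59% of all genes. The adjusted p was 0.999 for each of the 39. The median log2 fold change, NPYtet minus WT, was 0.02 over the collagens and -0.01 over all genes, with 20 positive and 19 negative values. No tested collagen separated the genotypes without overlap in CPM, which 0.305% of all genes did. DESeq2 and limma voom also called 0 of the 39, but DESeq2 gave no adjusted p for Col1a2 and Col3a1.

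**Figure D3:**
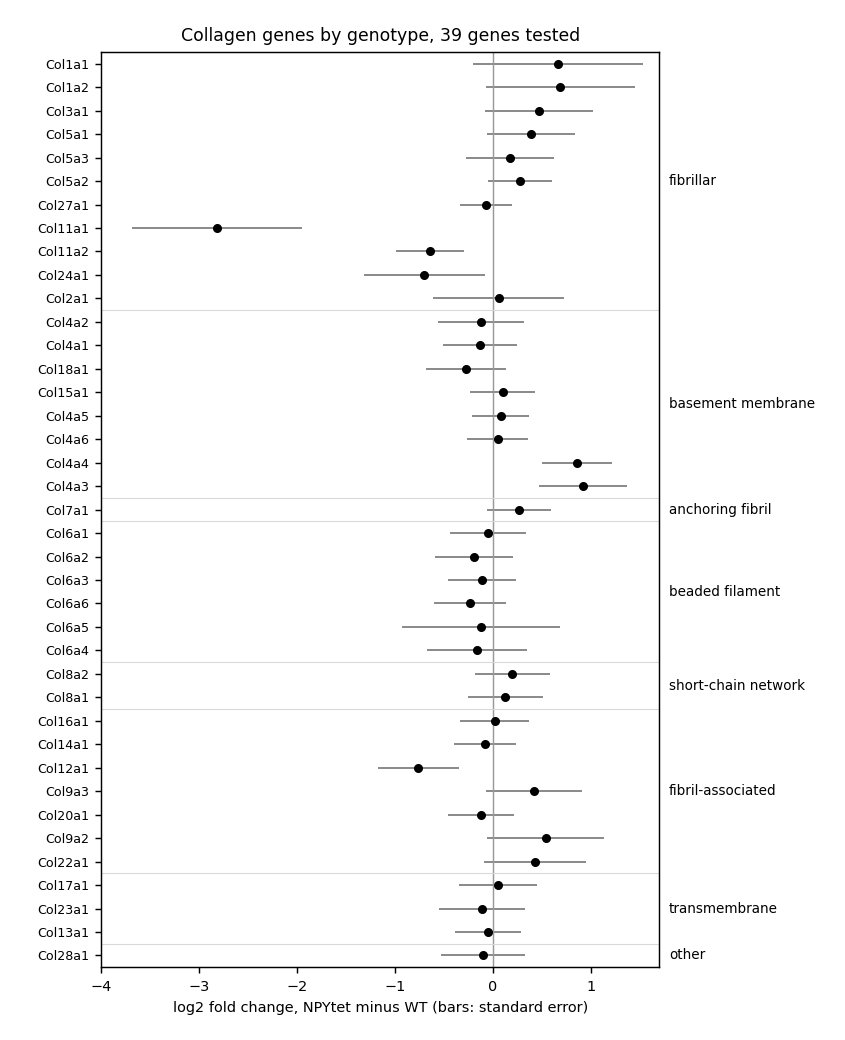
Log2 fold change of the 39 tested collagens, NPYtet minus WT (points), with the standard error derived from the edgeR test (bars), by class. Points lie on both sides of 0 around a median of 0.02, and Col11a1 stands farthest out at -2.82.

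Among the fibrillar genes, the chains of the main dermal fibrils varied widely between mice of both genotypes. Col1a1, which encodes the chain present in excess in type I collagen, had 29288, 13731, 2212, 2206 and 8104 CPM in NPYtet replicates 1 to 5, against 3160, 15233, 2548, 11097 and 24752 CPM in WT replicates 1 to 5. Col1a2, its partner chain, had 26025, 11802, 2581, 2384 and 9946 CPM in the NPYtet libraries, against 3056, 10950, 2970, 10715 and 21246 CPM in the WT libraries. Col3a1, whose product forms fibrils together with type I collagen, had 14713, 8145, 2633, 3201 and 6694 CPM in the NPYtet libraries, against 3010, 5512, 3369, 6763 and 12692 CPM in the WT libraries. For all 3 genes the highest library was NPYtet replicate 1, followed by WT replicate 5, and the lowest were NPYtet replicates 3 and 4 and WT replicates 1 and 3. The log2 fold changes by genotype were 0.67 ± 0.87 for Col1a1, 0.69 ± 0.76 for Col1a2 and 0.47 ± 0.55 for Col3a1 (± SE). Their sign rested on NPYtet replicate 1: without it they were -0.51, -0.34 and -0.15, in that order of genes.

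The type V chains, which start and limit the growth of type I fibrils, had log2 fold changes of 0.39 ± 0.45 (Col5a1), 0.28 ± 0.33 (Col5a2) and 0.18 ± 0.45 (Col5a3), with mean levels of 34.5 to 42.9 RPKM. The other fibrillar genes lay below 1 RPKM on average. Of these, Col27a1 had a log2 fold change of -0.07 ± 0.27, the smallest standard error in the set, Col11a2 of -0.64 ± 0.35, Col24a1 of -0.70 ± 0.62 and Col2a1 of 0.06 ± 0.67.

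Col11a1, a minor fibrillar chain best known from cartilage, had the smallest genotype p of any collagen. It had 0.738, 2.45, 1.61, 1.08 and 3.37 CPM in NPYtet replicates 1 to 5, against 43.8, 2.75, 4.94, 15.4 and 1.99 CPM in WT replicates 1 to 5. WT replicates 1 and 4 stood above all other libraries, and WT replicates 2 and 5 lay within the NPYtet range. The log2 fold change was -2.82 ± 0.87 (edgeR adjusted p = 0.999). Without WT replicate 1 it was -1.58, and without WT replicates 1 and 4, a choice made after seeing these values, it was -0.89 (edgeR adjusted p = 0.911). WT replicates 1 and 4 were also the libraries with the highest Lef1, a transcription factor of the growing hair follicle, at 47.2 and 53.2 CPM against 1.35 to 7.98 CPM elsewhere, and with the highest Msx2, another hair matrix factor, at 110 and 91.5 CPM against 5.05 to 46.4 CPM. The 7 keratins of the hair matrix and shaft list were instead highest in WT replicate 2 or NPYtet replicate 5, as with Krt83 at 1720 CPM in NPYtet replicate 5, against 1769 CPM in WT replicate 2, 856 CPM in WT replicate 1 and 715 CPM in WT replicate 4. All 9 genes of that list had negative genotype fold changes and 0 were called. Their summed level ran from 8.85 to 5864 CPM in NPYtet and from 18.2 to 7439 CPM in WT libraries, none of the 9 was at 0 throughout, and their part in the Col11a1 values was not tested. Of the 2 cartilage markers tested, Acan was highest in WT replicates 1 and 4, at 11.3 and 3.91 CPM. The other, Comp, was highest in WT replicate 3, at 5.81 CPM, and the part of cartilage genes was not tested either.

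With no filter on low counts, edgeR tested all 44 members and called Col11a1 lower in NPYtet skin (log2 fold change -2.86, adjusted p = 7.51e-08) together with Col26a1 (-2.80, adjusted p = 0.0032), in a fit that called 1.24% of all genes. Over the other alternatives the adjusted p of Col11a1 lay between 0.273 and 1. Col26a1, a little-studied secreted collagen outside the main classes, was too rare for the filtered test. It had 6, 4, 8, 9 and 0 reads in NPYtet replicates 1 to 5, against 54, 41, 9, 59 and 11 reads in WT replicates 1 to 5. In CPM it was the only member of the 44 whose genotypes did not overlap, at 0 to 0.206 CPM in NPYtet and 0.212 to 2.17 CPM in WT libraries, with WT replicate 3 just above the highest NPYtet library. Of the 18060 genes in the filtered test 0.305% did not overlap, and no such share was taken over rarer genes. The 0 reads of NPYtet replicate 5 allow up to 3 reads, by counting error only.

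None of the beaded filament genes was called by edgeR. All 6 log2 fold changes lay between -0.23 and -0.05, within their standard errors of 0.35 to 0.81. Col6a1, a core chain of type VI collagen, had 752, 632, 310, 466 and 559 CPM in NPYtet replicates 1 to 5, against 378, 1161, 470, 337 and 813 CPM in WT replicates 1 to 5. Col6a2, its partner, had 639, 630, 266, 403 and 524 CPM in NPYtet libraries, against 363, 1308, 449, 319 and 798 CPM in WT libraries. Col6a3, the long chain of the same molecule, had 247, 374, 172, 237 and 106 CPM in NPYtet libraries, against 249, 244, 197, 211 and 363 CPM in WT libraries. WT replicate 2 was highest for Col6a1 and Col6a2 but not for Col6a3, and NPYtet replicate 5 was lowest for Col6a3. Col6a4, Col6a5 and Col6a6, alternative chains of type VI collagen that are clustered on chromosome 9, were far rarer, at 0.0568 to 0.671 RPKM on average.

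Of the fibril-associated genes, 7 of 9 were tested, and their log2 fold changes ran from -0.76 to 0.54. Col16a1 had 285, 212, 169, 175 and 586 CPM in NPYtet replicates 1 to 5, against 230, 521, 217, 233 and 342 CPM in WT replicates 1 to 5. Col14a1, which binds the surface of type I fibrils, had 79.3, 47.9, 99.2, 163 and 36.8 CPM in NPYtet libraries, against 114, 29.9, 97.1, 50.4 and 72.2 CPM in WT libraries. Col12a1, a related fibril-binding collagen, had 18.0, 55.4, 15.0, 17.7 and 21.2 CPM in NPYtet libraries, against 75.0, 27.2, 25.2, 46.3 and 37.5 CPM in WT libraries. For Col12a1 all NPYtet libraries but replicate 2 lay below every WT library, and the log2 fold change was -0.76 ± 0.41 (edgeR adjusted p = 0.999). It was -0.20 without WT replicate 1, -0.12 without WT replicates 1 and 4 and -1.27 without NPYtet replicate 2. Col20a1 had 6.49, 2.48, 8.99, 7.49 and 2.78 CPM in NPYtet libraries, against 4.98, 4.23, 7.71, 3.29 and 3.86 CPM in WT libraries. Its exons overlap those of BX649560.1 on the same strand, and those of Col9a3 overlap Tcfl5 on the opposite strand, so counts of these members are uncertain. Col9a2, Col9a3 and Col22a1 had log2 fold changes of 0.54 ± 0.60, 0.42 ± 0.49 and 0.43 ± 0.52, and Col9a1 and Col19a1 had at most 12 and 5 reads in any library and were not tested.

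Among the basement membrane genes, Col4a1 and Col4a2, which encode the chains of the common type IV network, had 35.5 to 143 and 25.6 to 213 RPKM. Col4a1 had 402, 799, 265, 395 and 340 CPM in NPYtet replicates 1 to 5, against 441, 1064, 339, 309 and 475 CPM in WT replicates 1 to 5. Col4a2 had 316, 628, 169, 262 and 499 CPM in NPYtet libraries, against 267, 1408, 224, 227 and 389 CPM in WT libraries. Replicate 2 was the highest library of each genotype for both genes, and their log2 fold changes were -0.13 ± 0.38 and -0.12 ± 0.44. Their exons share 22 bases on opposite strands. Col18a1, a proteoglycan of basement membranes that releases endostatin, had 220, 387, 115, 131 and 499 CPM in NPYtet libraries, against 207, 1098, 137, 214 and 440 CPM in WT libraries, with a log2 fold change of -0.27 ± 0.41.

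The highest genotype fold changes of the whole set belonged to the head-to-head pair Col4a3 and Col4a4, which encode chains of the specialised type IV network known from the kidney glomerulus. Col4a4 had 20.9, 8.91, 7.13, 8.33 and 14.7 CPM in NPYtet replicates 1 to 5, against 6.22, 5.71, 7.92, 7.23 and 5.31 CPM in WT replicates 1 to 5. Col4a3 had 5.31, 1.65, 1.84, 2.63 and 4.17 CPM in NPYtet libraries, against 1.52, 0.793, 2.45, 2.0 and 1.13 CPM in WT libraries. NPYtet replicates 1 and 5 were the highest for both genes, while the other NPYtet libraries lay close to the WT range. The log2 fold changes were 0.86 ± 0.36 for Col4a4 and 0.92 ± 0.45 for Col4a3, with an adjusted p of 0.999 in edgeR for both. Without WT replicate 2 and NPYtet replicates 1 and 5, Col4a4 was at 0.30 and Col4a3 at 0.15, and limma voom with all libraries gave 0.29 for Col4a4 and 0.22 for Col4a3. The exons of Col4a3 overlap C430014B12Rik on the opposite strand. The third partner of that network, Col4a5, and its neighbour Col4a6 had log2 fold changes of 0.08 ± 0.29 and 0.05 ± 0.31, and Col15a1, a vessel and muscle basement membrane collagen, of 0.10 ± 0.33.

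At the junction of epidermis and dermis, Col7a1, the anchoring fibril collagen, had 213, 160, 166, 216 and 353 CPM in NPYtet replicates 1 to 5, against 108, 317, 207, 148 and 204 CPM in WT replicates 1 to 5. Col17a1, the transmembrane collagen of the hemidesmosome, had 1291, 1935, 1221, 1387 and 578 CPM in NPYtet libraries, against 720, 1909, 1189, 1088 and 1803 CPM in WT libraries. Their log2 fold changes were 0.27 ± 0.33 and 0.05 ± 0.40, and NPYtet replicate 5 had the highest Col7a1 but the lowest Col17a1. The summed level of the 6 basal keratinocyte markers ran from 9180 to 32775 CPM in NPYtet and from 6890 to 57719 CPM in WT libraries, 3 of the 6 had a positive genotype fold change, 0 were called and none was at 0 throughout.

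The other transmembrane genes were scarcer. Col23a1 had 33.0, 87.8, 38.9, 36.5 and 13.6 CPM in NPYtet replicates 1 to 5, against 24.0, 91.9, 39.4, 35.7 and 75.1 CPM in WT replicates 1 to 5. Col13a1, found at cell adhesions and the neuromuscular junction, had 3.27, 7.13, 6.39, 4.72 and 5.29 CPM in NPYtet libraries, against 4.49, 9.78, 4.94, 4.80 and 5.67 CPM in WT libraries. The log2 fold changes were -0.11 ± 0.44 and -0.05 ± 0.34, and Col25a1, a collagen of neurons, had at most 25 reads in a library and was not tested.

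Of the short-chain network genes, Col8a2 had 35.4, 12.7, 20.7, 16.2 and 29.4 CPM in NPYtet replicates 1 to 5, against 20.2, 26.0, 20.0, 7.96 and 23.3 CPM in WT replicates 1 to 5. Col8a1, its partner in vessel walls and the cornea, had 2.48, 1.53, 3.76, 4.49 and 1.26 CPM in NPYtet libraries, against 2.97, 1.0, 2.87, 2.09 and 1.19 CPM in WT libraries. Col10a1, the collagen of hypertrophic cartilage, had 3, 6, 4, 1 and 5 reads in NPYtet libraries, against 3, 6, 5, 8 and 7 reads in WT libraries, and part of its exon sequence is shared with Nt5dc1 on the opposite strand. The genotypes overlapped for all 3. Col28a1, a collagen of peripheral nerve outside the main classes, had 2.46, 1.43, 2.58, 3.02 and 2.32 CPM in NPYtet libraries, against 4.78, 0.793, 2.59, 2.83 and 0.950 CPM in WT libraries, and its log2 fold change was -0.10 ± 0.43.

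**Figure D4:**
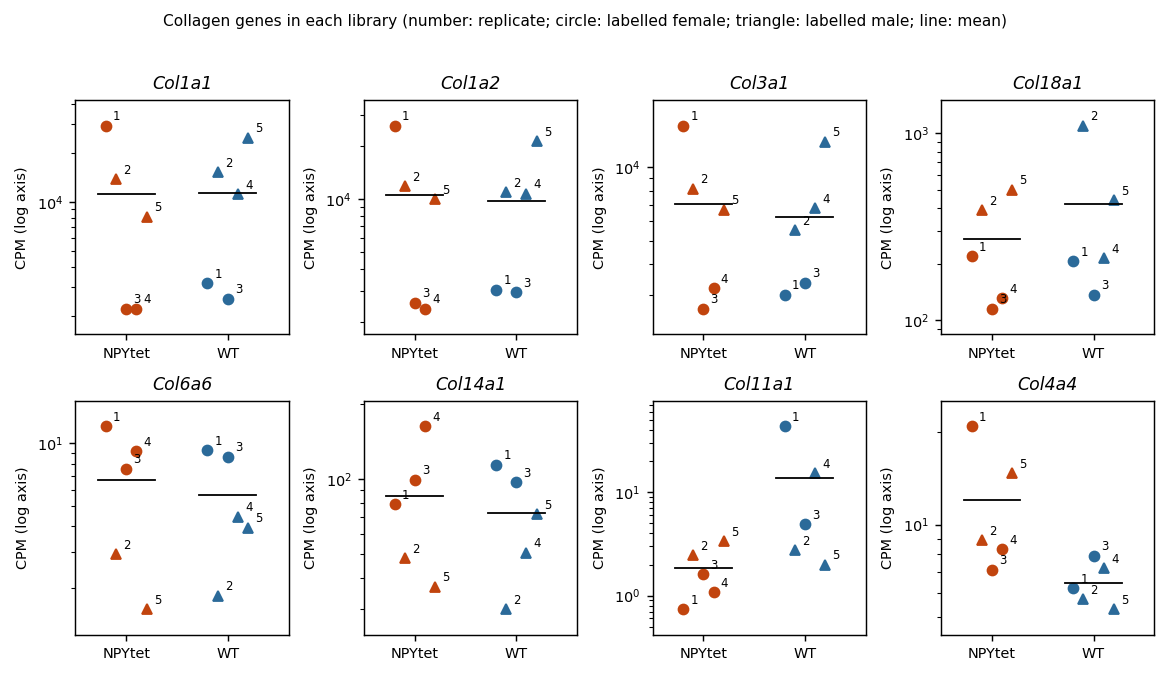
CPM of 8 collagens in each library on log axes, NPYtet left and WT right, with the replicate number beside each point, the group mean as a line, circles for libraries labelled female and triangles for libraries labelled male. In Col1a1, Col1a2 and Col3a1 the triangles and NPYtet replicate 1 lie above the other circles, in Col6a6 and Col14a1 the triangles lie below the circles, and in Col11a1 WT replicates 1 and 4 stand above the rest.

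By labelled sex, Col6a6 was the collagen that passed the test over all 10 libraries. Sex was a term of the same edgeR fit, signed male minus female. It called 1 of 39 collagens, lower in libraries labelled male, and 2.48% of all genes, so the share of collagens called was near that of all genes. At an unadjusted p under 0.05 there were 8 collagens of 39, against 24.6% of all genes, a share near the background. The median log2 fold change was 0.44 over the collagens and -0.07 over all genes, with 23 positive values, but the libraries with the high ribosomal RNA share were both labelled male, and without them the median over collagens was 0.13. Without NPYtet replicate 1 it was 0.41.

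Col6a6, an alternative chain of type VI collagen, had 2.93 and 1.59 CPM in NPYtet replicates 2 and 5 and 1.85, 4.44 and 3.92 CPM in WT replicates 2, 4 and 5, all labelled male, against 12.1, 7.56 and 9.18 CPM in NPYtet replicates 1, 3 and 4 and 9.27 and 8.63 CPM in WT replicates 1 and 3, all labelled female. The labelled sexes did not overlap, and the highest value was NPYtet replicate 1, whose Xist and Ddx3y reads conflict with its label. The log2 fold change was -1.73 ± 0.38 (edgeR adjusted p = 0.0311), lower in libraries labelled male. The call was lost when any one of WT replicates 2 and 3 and NPYtet replicates 2, 3, 4 and 5 was left out, with adjusted p from 0.0503 to 0.107, and the fold change then stayed between -1.84 and -1.47.

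Col14a1, Col20a1 and Col8a1 were likewise lower in all 5 libraries labelled male than in all 5 labelled female. With Col6a6 they were the 4 of 39 tested collagens whose labelled sexes did not overlap, against 8.44% of all genes. That share of collagens was near the background. NPYtet replicate 1, whose label is in doubt, had 79.3 CPM of Col14a1 and 2.48 CPM of Col8a1. Both values lay between the libraries labelled male and the others labelled female. Its 6.49 CPM of Col20a1 lay among the others labelled female. Col14a1 averaged 47.5 ± 16.2 CPM in libraries labelled male and 110 ± 31.7 CPM in those labelled female (SD, n = 5 each), and its log2 fold change was -1.24 ± 0.32 with an adjusted p of 0.0553 in edgeR. Col20a1 averaged 3.33 ± 0.727 CPM in libraries labelled male and 7.13 ± 1.5 CPM in those labelled female (log2 fold change -1.14, edgeR adjusted p = 0.085). Col8a1 averaged 1.41 ± 0.421 CPM in libraries labelled male and 3.31 ± 0.804 CPM in those labelled female (log2 fold change -1.18, edgeR adjusted p = 0.095). Without NPYtet replicate 1 the log2 fold changes were -1.27 for Col14a1 (edgeR adjusted p = 0.0557), -1.11 for Col20a1 (0.107) and -1.22 for Col8a1 (0.105). These 3 did not pass the threshold in edgeR but did in DESeq2, which called 6 of 39 collagens and 12.8% of all genes, and in limma voom with sample quality weights, which called 13 of 39 and 31.0% of all genes. Either share of collagens called was near that of all genes. DESeq2 gave no adjusted p by sex for Col1a2 and Col3a1. In both of these fits Col18a1 and Col4a2 were called higher in libraries labelled male. Col18a1 averaged 528 ± 336 CPM in libraries labelled male and 162 ± 48.1 CPM in those labelled female (log2 fold change 1.64 ± 0.42, edgeR adjusted p = 0.0536), and its highest value, 1098 CPM, was WT replicate 2. Col10a1, too rare to be tested, had 0.132 to 0.331 CPM in libraries labelled male and 0.0229 to 0.118 CPM in those labelled female, which rests on 5 to 8 reads in libraries labelled male and 1 to 5 reads in those labelled female.

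In edgeR, the call of the type I collagen genes by labelled sex depended on the library whose label is in doubt. With all 10 libraries, limma voom with sample quality weights called them higher in libraries labelled male. There Col1a1 was at 2.59 (adjusted p = 0.0247), Col1a2 at 2.26 (0.0233) and Col3a1 at 1.46 (0.0236), in the fit that called 31.0% of all genes. DESeq2 did not call Col1a1 (1.31, adjusted p = 0.157). Without NPYtet replicate 1, edgeR called 4 of 40 tested collagens by labelled sex, against 3.09% of all genes: Col1a1, Col1a2 and Col18a1 were higher in libraries labelled male and Col6a6 was lower. Col1a1 ran from 8104 to 24752 CPM in the 5 libraries labelled male, against 2206 to 3160 CPM in the 4 remaining libraries labelled female, a log2 fold change of 2.5 ± 0.44 (adjusted p = 0.00861). With NPYtet replicate 1 counted under its label, at 29288 CPM, it was 1.27 ± 0.87 (adjusted p = 0.37). Col1a2 had a log2 fold change of 2.24 ± 0.42 without that library (adjusted p = 0.0123) and of 1.16 ± 0.76 with it (adjusted p = 0.349), and Col3a1 was at 1.41 ± 0.41 without it (adjusted p = 0.0714). Col1a1, Col1a2, Col3a1, Col5a1, Col5a2 and Col18a1 were then higher in every library labelled male without overlap, and 4 members lower, against 14.6% of all genes. Without WT replicate 2 and NPYtet replicate 5 as well, Col1a1 (2.68), Col1a2 (2.38) and Col3a1 (1.59) were called higher in libraries labelled male, Col6a6 (-1.23) lower, and Col18a1 (1.27, edgeR adjusted p = 0.0549) was not called. No fit counted NPYtet replicate 1 as male.

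**Figure D5:**
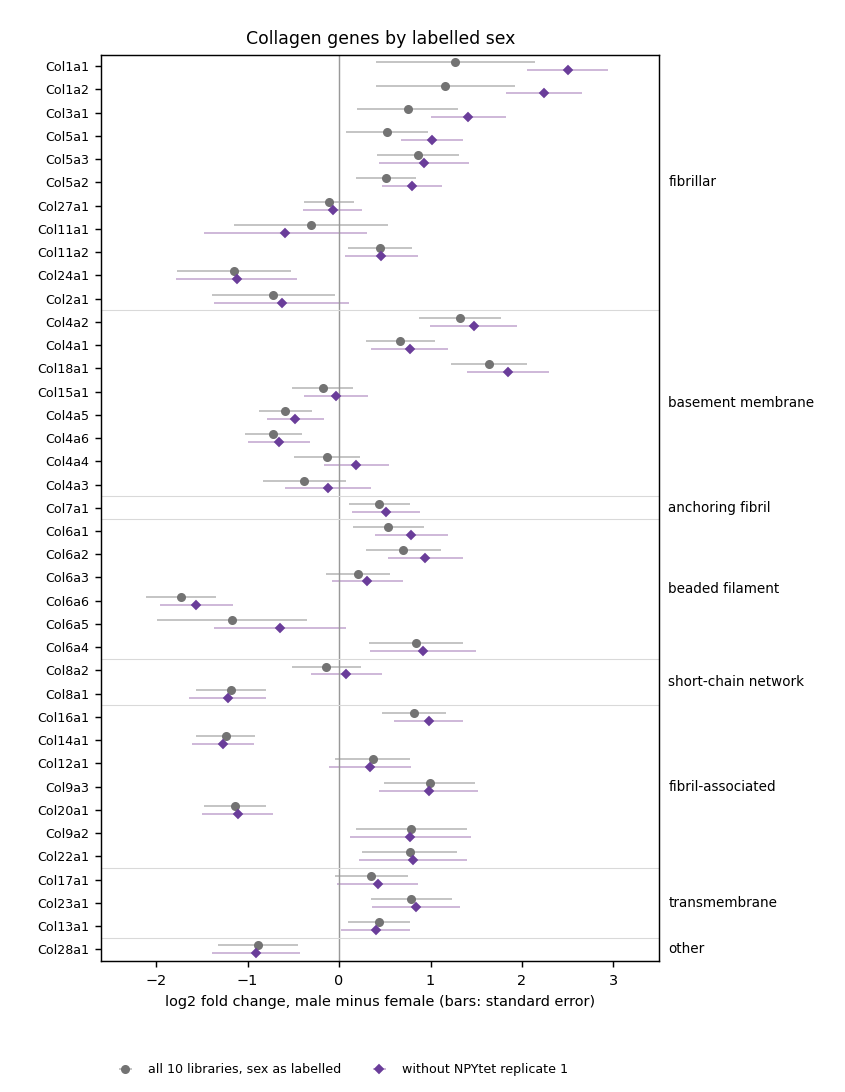
Log2 fold change of the 39 collagens tested in the fit to all libraries, male minus female by label, with standard errors, from all 10 libraries (grey circles) and without NPYtet replicate 1 (purple diamonds). Col1a1 lies at 1.27 with all libraries and at 2.5 without NPYtet replicate 1, while Col6a6 and Col14a1 stay below -1 in both.

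Fibroblasts are the main source of the type I chains in skin. Of the 8 fibroblast markers, 4 had a positive fold change by labelled sex and 0 were called, and none was at 0 throughout. Their summed level was 2045 to 6459 CPM in libraries labelled male and 2792 to 4547 CPM in those labelled female. By genotype it was 3335 to 6459 CPM in NPYtet and 2045 to 4260 CPM in WT libraries, with 6 of 8 fold changes positive and 0 called. Dcn, the fibroblast proteoglycan decorin, had 2496, 1871, 2807, 2318 and 4053 CPM in NPYtet replicates 1 to 5, against 1708, 899, 2607, 1409 and 1209 CPM in WT replicates 1 to 5. Lox, a collagen crosslinking enzyme of the same list, had 142, 83.9, 29.7, 45.1 and 199 CPM in NPYtet replicates 1 to 5, against 30.6, 39.5, 38.8, 66.6 and 49.8 CPM in WT replicates 1 to 5. NPYtet replicates 3 and 4, the lowest NPYtet libraries for Lox, were not the lowest for Dcn. Basal keratinocyte markers ran from 9484 to 57719 CPM in libraries labelled male and from 6890 to 12192 CPM in those labelled female, with 4 of 6 fold changes positive, 1 called (Krt14, log2 fold change 2.79, edgeR adjusted p = 0.0197) and none at 0. Without NPYtet replicate 1, Krt14 was at 2.95 (edgeR adjusted p = 0.0169), and the libraries labelled female reached 10412 CPM in keratinocyte markers and, as before, 4547 CPM in fibroblast markers. All 6 Schwann cell markers had negative fold changes by labelled sex, with a median of -0.98 and 1 called (Cdh19, -2.0, edgeR adjusted p = 0.0493). All 9 hair genes had positive ones, with a median of 4.66 and 0 called. Of the 6 endothelial markers 5 were negative and 1 was called (Tek, -1.36, edgeR adjusted p = 0.0498; 0.0591 without NPYtet replicate 1), and 0 white adipocyte, skeletal muscle and cartilage markers were called by sex with all libraries. Without NPYtet replicate 1, the skeletal muscle marker Myh4 was called lower in libraries labelled male (-2.19, edgeR adjusted p = 0.0158). The part of all these markers in the sex differences of the collagens was not tested. By genotype, 0 genes of the endothelial, white adipocyte, skeletal muscle, Schwann and cartilage lists were called.

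The genotype difference was not found to depend on labelled sex for any collagen. The edgeR test of the interaction called 0 of 39 collagens and 0% of all genes. At an unadjusted p under 0.05 there were 2 collagens, Col11a1 and Col12a1, against 1.63% of all genes. DESeq2 also called 0 collagens, as did edgeR without NPYtet replicate 1.

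Ratios between chains do not depend on how libraries are scaled, and 7 were compared between genotypes from reads per kilobase of exon. None passed a two-sided exact permutation test that divided the 10 libraries in every way into groups of 5 and cannot give a p below 0.00794. After adjustment over the 7 ratios, a single ratio at that floor could not pass, so a difference in only that ratio could not have been called. Type I collagen is built from the Col1a1 and Col1a2 chains, and the ratio of Col1a1 to Col1a2 was 2.13, 2.20, 1.62, 1.75 and 1.54 in NPYtet replicates 1 to 5, against 1.96, 2.63, 1.62, 1.96 and 2.21 in WT replicates 1 to 5. It thus stayed within 1.54 to 2.63 while Col1a1 itself spanned 13.3-fold. The size of this ratio rests on annotated exon lengths of 6563 and 12426 bases, so it does not give the proportion of the chains. The lowest p was for Col6a1 to Col6a2, at 2.12 ± 0.143 in NPYtet and 1.92 ± 0.133 in WT libraries (SD, n = 5 each; exact permutation p = 0.0714, adjusted p = 0.5 over the 7 ratios). Without NPYtet replicate 2 this ratio did not overlap between genotypes. Its adjusted p in the permutation test was then 0.0556, the lowest that a single ratio could reach alone. With any other single library left out, its adjusted p in that test lay between 0.444 and 0.917. The ratio of Col3a1 to Col1a1, the balance of type III and type I transcripts, was 0.336, 0.397, 0.796, 0.970 and 0.552 in NPYtet replicates 1 to 5, against 0.637, 0.242, 0.884, 0.407 and 0.343 in WT replicates 1 to 5. The 4 libraries with the lowest Col1a1, NPYtet replicates 3 and 4 and WT replicates 1 and 3, had the 4 highest ratios, from 0.637 to 0.970, and Col1a1 is part of both measures. The means of Col4a1 to Col4a2 were 1.12 ± 0.310 in NPYtet and 1.15 ± 0.306 in WT libraries, with WT replicate 2 (0.670) and NPYtet replicate 5 (0.604) below all others. The ratio of Col17a1 to Col7a1 was 2.80 in NPYtet replicate 5 and 9.86 to 20.7 in the other 9 libraries.

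The enzymes and chaperones that make collagen, and the receptors that bind it, gave 0 calls by genotype. Of 18 modification and folding genes, all tested, 11 had a positive genotype fold change (median 0.04). The smallest p belonged to Plod2, a lysyl hydroxylase (log2 fold change -0.80 ± 0.48), P3h4, a member of the prolyl hydroxylase family (0.31 ± 0.33), and Fkbp10, a collagen prolyl isomerase (0.39 ± 0.42). Of 10 propeptide removal genes 7 were tested, with a median of 0.24, led by Pcolce2, an enhancer of C-propeptide cleavage (0.65 ± 0.33), Adamts3, an N-propeptidase (-0.85 ± 0.65), and Adamts14, of the same family (0.26 ± 0.29). Of 10 receptor genes 9 were tested, with a median of 0.31, led by the integrin subunit Itga2 (0.54 ± 0.40), the collagen uptake receptor Mrc2 (0.56 ± 0.42) and the leukocyte receptor Lair1 (0.50 ± 0.40). By labelled sex, 1 of these genes was called, in a fit that called 2.48% of all genes: Itga11, the integrin subunit with which fibroblasts grip type I collagen, was lower in libraries labelled male (log2 fold change -1.43 ± 0.34, edgeR adjusted p = 0.0424). Without NPYtet replicate 1, Fkbp10 (1.57, adjusted p = 0.0351), the N-propeptidase Adamts2 (1.43, adjusted p = 0.0382) and Mrc2 (1.66, adjusted p = 0.0418) were called higher in libraries labelled male, beside Itga11 lower (-1.44, adjusted p = 0.0474). That edgeR fit called 3.09% of all genes. Adamts2 had 314 and 242 CPM in NPYtet replicates 2 and 5 and 373, 197 and 409 CPM in WT replicates 2, 4 and 5, all labelled male, against 113 and 117 CPM in NPYtet replicates 3 and 4 and 95.6 and 139 CPM in WT replicates 1 and 3, all labelled female, and NPYtet replicate 1 stood at 537 CPM.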

How the data were processed

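The deposited files give raw counts of reads for each Ensembl gene in 10 mice. Per the labels' protocols, total RNA came from skin homogenised in TRIzol and cleaned on columns, and directional poly(A) libraries were read from both ends. The submitters' processing notes list STAR 2.5.2, Trimmomatic 0.36, FastQC 0.11.8, DESeq2 1.30.1 and bcl2fastq, with build mm10. The sources used here do not give the strand setting of the counting or the annotation release, so members that overlap another gene are uncertain. Of 49671 IDs, 49412 matched GENCODE M21. The other 259 took 0.0189% of reads.

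The tests used edgeR 4.0.16 under R 4.3.3: filterByExpr (minimum count 10, minimum total 15, 18060 genes kept), TMM scaling and the robust quasi-likelihood test on sex and genotype, with Benjamini-Hochberg adjustment over all genes and a threshold of 0.05. DESeq2 1.42.0, limma 3.58.1, other scaling and filters, a replicate block and left-out libraries were alternatives. The fit was tested on simulated data. The standard error of an edgeR fold change was derived from the test, as the absolute log2 fold change divided by the square root of the F statistic. Union exon lengths came from GENCODE M21. No pair of libraries within a group differed by less than sampling noise. Labels do not say that replicates share a litter or day. P-values of the fits set a difference against the spread between these libraries, 1 per mouse. Those of the chain ratios count divisions of the libraries.

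The members and lists were chosen with earlier results of these data known. Values in every library are given for the 3 highest members of each class by RPKM, called members, and the 4 smallest p by genotype and by sex, and from the processing and receptor lists the called genes and the 3 smallest genotype p are named. Hair, fibroblast, keratinocyte and other marker genes were chosen with the lists.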

Additional observations from a re-analysis of the deposited data

Results flagged for a closer look

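In 64 groups of 5 libraries, the CPM of each tested member given in every library, each of the 7 chain ratios and the collagen share of reads were examined for a library whose gap to its nearest neighbour took more than 0.71 of the group's range, Dixon's critical value for 5 samples. For independent, normally distributed values chance gives about 5% of groups. Unlogged CPM and related genes need not meet that condition, so no excess over chance is read from the 7 groups found. WT replicate 2 accounted for 4 of them: Col4a1 at 1064 CPM against 309 to 475 CPM in the other WT libraries, Col4a2 at 1408 CPM against 224 to 389 CPM, Col13a1 at 9.78 CPM against 4.49 to 5.67 CPM, and a ratio of Col6a1 to Col6a2 of 1.69 against 1.94 to 2.01. NPYtet replicate 2 stood out for Col4a1 at 799 CPM, against 265 to 402 CPM in the other NPYtet libraries, and for Col12a1 at 55.4 CPM against 15.0 to 21.2 CPM. NPYtet replicate 5 stood out for Col16a1 at 586 CPM, against 169 to 285 CPM in the other NPYtet libraries. WT replicate 2 and NPYtet replicate 5 are the libraries with the high ribosomal RNA share, and its part in these values was not tested.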

How the results depend on the processing

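With no collagen called by genotype, the sign of small fold changes often moved. The count stayed at 0 in every alternative run but the unfiltered fit, which called 2. Col1a1 (0.67 with all libraries) was at -0.14 in limma voom, -0.03 without the sex term, -0.38 with the replicate number as a block and -0.36 without WT replicate 2 and NPYtet replicates 1 and 5. In the same order of limma voom, block and those 3 libraries left out, Col1a2 was at -0.14, -0.18 and -0.33, and in limma voom and without those libraries Col3a1 was at -0.07 and -0.17. Without those 3 libraries Col16a1 was at -0.39, Col4a2 at 0.34 and Col8a2 at -0.18, and in limma voom they were at -0.34, 0.09 and -0.16. The block gave -0.19 for Col16a1, -0.06 for Col17a1 and 0.23 for Col28a1. Leaving out the sex term gave -0.11 for Col16a1 and -0.07 for Col17a1. Without the libraries with a high ribosomal RNA share, Col16a1 was at -0.19, Col4a2 at 0.42, Col6a1 at 0.25 and the log2 ratio of Col17a1 to Col7a1 at 0.12. Without WT replicates 1 and 4, Col16a1 was at -0.11, Col17a1 at -0.28, Col28a1 at 0.58, Col7a1 at -0.06 and Col8a2 at -0.05. Without NPYtet replicates 1 and 5, also chosen after seeing the data, the log2 ratios were 0.28 for Col17a1 to Col7a1, 0.20 for Col4a1 to Col4a2 and 0.33 for Col6a3 to Col6a1. Single libraries left out gave ranges of -0.32 to 0.21 for Col16a1, -0.21 to 0.40 for Col17a1, -0.51 to 1.26 for Col1a1, -0.34 to 1.13 for Col1a2, -0.30 to 0.19 for Col28a1, -0.15 to 0.73 for Col3a1, -0.30 to 0.40 for Col4a2, -0.26 to 0.16 for Col6a1, -0.02 to 0.40 for Col8a2, -0.24 to 0.15 for Col4a1 to Col4a2, -0.40 to 0.14 for Col6a3 to Col6a1 and -0.56 to 0.17 for Col17a1 to Col7a1. None of these values passed a threshold.

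By labelled sex, the count of called collagens was 1 with all libraries, 6 in DESeq2, 13 in limma voom, 4 in the unfiltered fit (7.24% of all genes), 3 without the genotype term (4.24%) and 4 without WT replicate 2 and NPYtet replicates 1 and 5 (5.08%). It ran from 0 to 5 over single libraries left out, with 5 called without WT replicate 4, where 14.9% of all genes were called. The median fold change was 0.13 without the libraries with a high ribosomal RNA share, 0.08 without NPYtet replicate 1 as well, and 0.19 to 0.51 over single libraries left out. Col8a2 by sex ran from -0.34 to 0.08. The cause of these shifts was not tested.

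The deviations of same-numbered NPYtet and WT libraries correlated at -0.256, 0.304, 0.644, 0.0931 and 0.0761. Not every pair was above 0.1, and 1 of the 5, number 3, correlated best with its own number, so the numbers were not taken as pairs. The replicate block, in place of the sex term, called 0 of 39 collagens, with a median of 0.04. Over 5 pairs of equal number the smallest p of a sign exchange is 0.0625, so no chain ratio could pass, and 0 did. Collagens with few reads, such as Col9a1, Col10a1, Col19a1 and Col25a1, were limited by depth.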
